A study of Triticum aestivum with 16 samples.

Results

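Shoot apices of the bread wheat hexa-mutant M6 were compared with shoot apices of its wild type (WT) in the cultivar Zhengmai7698 (ZM7698). The comparison holds 2 M6 and 2 WT messenger RNA libraries, 4 of the 16 libraries of the series, chosen by tissue, cultivar and genotype. M6 carries mutant alleles in the A, B and D copies of both TaSPL7 and TaSPL15. All 4 apex libraries came from 2-week-old seedlings grown in 16 h of light at 22 °C and 8 h of dark at 19 °C. From the same cultivar, genotypes and age, 2 libraries each of WT and M6 axillary buds of 1.0 to 2.0 cm served for comparison. In a second cultivar, AiKang58 (AK58), shoot apex, leaf, root and axillary bud were set beside them as a description. The AK58 apex, leaf and root were 2 weeks old and the AK58 buds 6 weeks old, after 30 days of vernalization at 4 °C. The labels do not say how the M6 mutations were made, whether M6 is 1 line or several, or whether the 2 libraries of a group came from separate plants. The p-values therefore measure the spread between these libraries, which may be technical.

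SQUAMOSA PROMOTER BINDING PROTEIN-LIKE (SPL) proteins are plant transcription factors that bind promoters at a short GTAC-containing core. They act in the change from juvenile to adult growth, in branching and tillering, and in the forming of the inflorescence, and several of them are held down by the microRNA miR156. Bread wheat is a hexaploid with A, B and D subgenomes, so most genes have 3 close copies (homoeologs), 1 in each subgenome. The shoot apex holds the meristem that makes leaves and, after the floral transition, the spike.

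The deposited values are TPM, a transcript level corrected for length and scaled so that every library has the same sum. The sequencing depth behind them is unknown. In the 4 apex libraries 72703 to 73715 of 120744 identifiers were above 0. Genes with at least 1 TPM in at least 2 of the 8 ZM7698 libraries were tested, which left 50878, and each was fitted with limma on log2(TPM + 1). That fit took 1 spread per gene from all 8 libraries, so each apex SE and p also rests on the bud libraries. A group listed at 0 in both of its libraries adds no spread to that estimate. A gene was called when its adjusted p was under 0.05 and its log2 fold change reached 1 in either direction. The identifiers are not paired with gene names in the files or in the reference table used here, which matched 0 of them. Names such as SPL14-7D rest on published identifiers alone, and the number in SPL names differs between publications. Whether SPL14-7D is a copy of a gene mutated in M6 is therefore not settled here, and the mutated genes could not be checked in each library.

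The tissue label was checked against the 200 genes with the highest ratio of shoot apex to leaf and root in AK58. In the 4 ZM7698 apex libraries 139 to 157 of these apex markers reached 1 TPM. The 4 ZM7698 bud libraries had 132 to 145 of them at that level. The markers were chosen without regard to buds, so this check does not tell apex from bud. The 200 leaf markers chosen in the same way summed to 262.2 and 227.9 TPM in WT and to 1022.7 and 532.9 TPM in M6, without overlap. At least 1 TPM was reached by 25 and 23 leaf markers in WT and by 34 and 28 in M6, and 89 to 119 of the 200 were at 0 in each apex library. The 200 root markers summed to 75.1 and 101.1 TPM in WT and 149.6 and 75.0 TPM in M6. None of the 52 leaf, 20 root and 162 apex markers that were tested was called in limma. Since 0.134% of all genes tested were called, lists of this size would seldom hold a call, and nothing is read from this count. The median log2 fold change was 0.53 for the tested leaf markers, -0.13 for the apex markers and -0.05 for all genes tested. The part of leaf RNA in the values of single genes was otherwise not tested. In bulk tissue, fewer cells of a type and less RNA per cell cannot be told apart.

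A small set of genes differed between the M6 and WT apex. In many of them the lower genotype had a mean under 1 TPM. The share of all genes tested with so low a mean was not counted, so this is a description. In M6, 40 genes were higher, 0.0786% of those tested, and 28 were lower, 0.055% of those tested. With the spread taken from the apex libraries alone, 11 were called higher and 9 lower. The 40 higher genes differed by log2 fold changes of 1.15 to 7.07, with a median of 1.80. The 28 lower genes differed by -1.04 to -6.56, with a median of -1.98. In each of the 68 genes the M6 libraries did not overlap with the WT libraries, while 17.4% of all genes tested were higher and 29.2% lower in M6 without overlap. Among all genes tested, 1.93% reached a log2 fold change of 1 in either direction, and 916 of those 984 genes were not called. All 1135 noncoding identifiers tested stayed uncalled, and 3299 of all tested identifiers had an unadjusted limma p under 0.05.

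**Figure D1:**
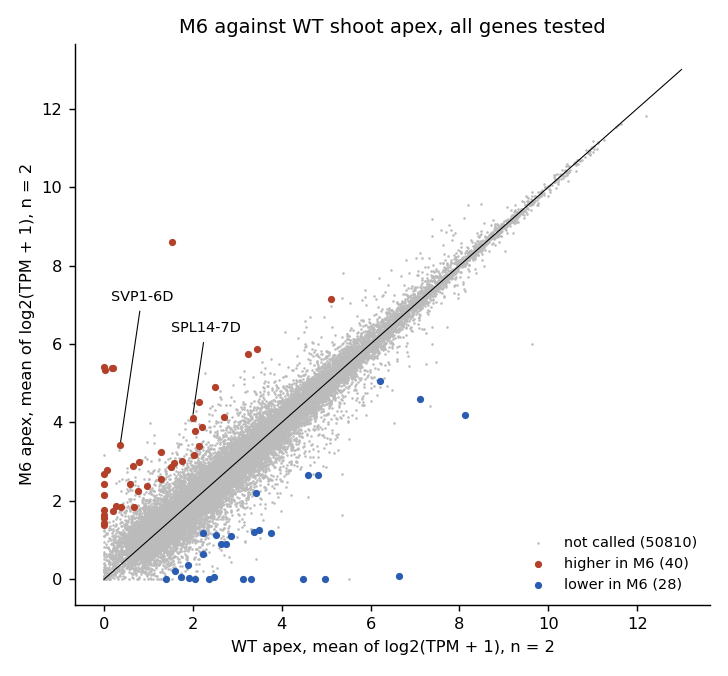
Mean log2(TPM + 1) in the WT apex (x axis) and the M6 apex (y axis), 2 libraries each, for the 50878 genes tested. Red points are the 40 genes called higher in M6, blue points the 28 called lower, and the line marks equal levels; many called genes lie on or near 0 on 1 axis.

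The uncalled genes with large changes often rested on 1 library. Of the 916, the second WT library lay more than 1 log2 unit beyond the other 3 apex libraries in 248, and the first M6 library in 158. The counts were 28 for the first WT library and 17 for the second M6 library. Over all genes tested, the second WT library was more than 1 log2 unit above the other 3 in 646 genes and the first M6 library in 292. Leaf, root and apex markers made up 14, 1 and 0 of those 292 and 0, 2 and 12 of the 646. They were 0.102%, 0.0393% and 0.318% of all genes tested. Across genes, log2 levels of the 2 WT libraries correlated at r = 0.971, those of the 2 M6 libraries at 0.982, and those of the first WT and the second M6 library at 0.979. Genes within a library are not independent replicates, and these coefficients only describe the libraries. The 2 libraries of a genotype were thus not uniformly more alike than libraries of different genotypes.

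How many genes were called depended on which libraries entered the fit. Leaving out the first or second WT apex library left 10 higher and 16 lower, or 10 higher and 8 lower genes. Leaving out the first or second M6 apex library left 5 higher and 9 lower, or 8 higher and 8 lower genes. Without either WT bud library 18 higher and 9 lower genes were called, and without either M6 bud library 49 higher and 37 lower. A group left with 1 library takes its spread from the other groups, so these fits assume that the lone library varies as they do. Leaving out either library of a bud group removes the same spread and leaves the apex means as they were. Such fits are therefore not separate checks and do not show an effect of a single bud library. Of the 68 genes, 13 held their call in each of these fits, 5 higher and 8 lower, and no gene changed direction.

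The 68 genes were sorted by the level in the lower genotype. Genes with a mean under 0.1 TPM there are called switched, those from 0.1 to under 1 TPM low, and those of at least 1 TPM graded. There were 11 switched, 12 low and 17 graded genes among those higher in M6, and 11 switched, 5 low and 12 graded genes among those lower in M6. A gene could pass the filter on low values through its higher genotype alone, so the switched genes had to differ and their number is a description. The classes were not counted over all genes tested, so no excess of any class is shown.

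Switched genes were found in both directions, in equal number at the limit of 0.1 TPM. Of the 11 that were higher in M6, 8 were listed at 0 in both WT libraries, and their M6 means ran from 1.61 to 41.5 TPM with a median of 3.47. Of the 11 that were lower in M6, 5 were listed at 0 in both M6 libraries, and their WT means ran from 1.64 to 99.3 TPM with a median of 4.65. Over all genes tested, the median mean level in the higher genotype was 4.86 TPM.

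The 2 largest switched increases were in genes without a name in the sources. TraesCS5B02G061400 was at 0 in both WT libraries and at 40.6 and 42.3 TPM in the M6 libraries. Its log2(TPM + 1) difference was 5.41 ± 0.12 (SE, n = 2 against 2, limma adjusted p = 2.4e-05). TraesCS3D02G504400 was at 0 and 0.0261 TPM in WT and at 40.2 and 39.2 TPM in M6, a log2 difference of 5.33 ± 0.10 (limma adjusted p = 1.6e-05). Both genes were silent or nearly so in WT and at a moderate level in M6. The AK58 apex differed between these genes: TraesCS5B02G061400 had 1754 and 2327 normalised reads there, and TraesCS3D02G504400 had 0 in both libraries. The AK58 values are whole reads divided by 1 factor per library and carry no correction for length, so they are not TPM.

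The 2 largest switched decreases lay on the same chromosome. TraesCS5B02G260600 was at 103.5 and 95.2 TPM in WT and at 0.127 and 0 TPM in M6, and fell by 6.56 ± 0.12 on the log2 scale (SE, n = 2 against 2, limma adjusted p = 1.6e-05). TraesCS5B02G080800 was at 30.4 and 30.1 TPM in WT and at 0 and 0.00701 TPM in M6, and fell by 4.96 ± 0.09 (limma adjusted p = 1.6e-05). The replicates of each were far closer to each other than the genotypes were. In the AK58 apex TraesCS5B02G260600 had 3733 and 6154 normalised reads and TraesCS5B02G080800 had 1.67 and 0.849, so the second gene was near 0 in the other cultivar as in M6. These 4 switched genes held their calls in each of the 8 fits without 1 library.

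Low genes had some signal in the lower genotype. TraesCS1D02G136600 was at 0 and 0.286 TPM in WT and at 41.1 and 41.0 TPM in M6 (log2 difference 5.21 ± 0.24, limma adjusted p = 0.00119). TraesCS5B02G107400 was at 0.167 and 0.147 TPM in WT and at 41.8 and 40.5 TPM in M6 (5.19 ± 0.11, limma adjusted p = 2.4e-05). These increases were as large as those of the switched genes and held without any 1 library. The low genes that fell did so by less. TraesCS2B02G232400 was at 6.10 and 5.43 TPM in WT and at 0.918 and 0.845 TPM in M6, a difference of -1.84 ± 0.18 (limma adjusted p = 0.0334). TraesCSU02G179500, on no assigned chromosome, was at 5.69 and 4.84 TPM in WT and at 0.864 and 0.899 TPM in M6, a difference of -1.73 ± 0.13 (limma adjusted p = 0.0112). Each of these decreases lost its call without any 1 of the 4 apex libraries or either WT bud library, with a limma adjusted p of up to 0.385 for the first and 0.204 for the second.

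Graded genes were expressed in both genotypes. The gene with the largest increase of all, TraesCS1D02G037300, was at 1.85 and 1.95 TPM in WT and at 397.1 and 381.4 TPM in M6. Its log2 difference was 7.07 ± 0.17 (SE, n = 2 against 2, limma adjusted p = 3.8e-05), and the AK58 apex had 2418 and 3323 normalised reads of it. TraesCS2D02G018600 was at 7.99 and 8.99 TPM in WT and rose to 50.3 and 54.1 TPM in M6 (2.49 ± 0.13, limma adjusted p = 0.00202). The first of these increases held without any 1 library, and the second lost its call without the first or the second M6 apex library, with a limma adjusted p of up to 0.0549.

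Among the graded genes that fell, TraesCS6B02G078400 went from a high to a moderate level. It was at 302.0 and 257.8 TPM in WT and at 20.5 and 14.5 TPM in M6, a log2 difference of -3.94 ± 0.18 (SE, n = 2 against 2, limma adjusted p = 0.00119), and held its call without any 1 library. TraesCS5B02G195500 was at 12.1 and 13.2 TPM in WT and at 1.57 and 0.997 TPM in M6 (-2.59 ± 0.22, limma adjusted p = 0.0182). That call was lost without any 1 apex library or either WT bud library, with a limma adjusted p of up to 0.173.

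**Figure D2:**
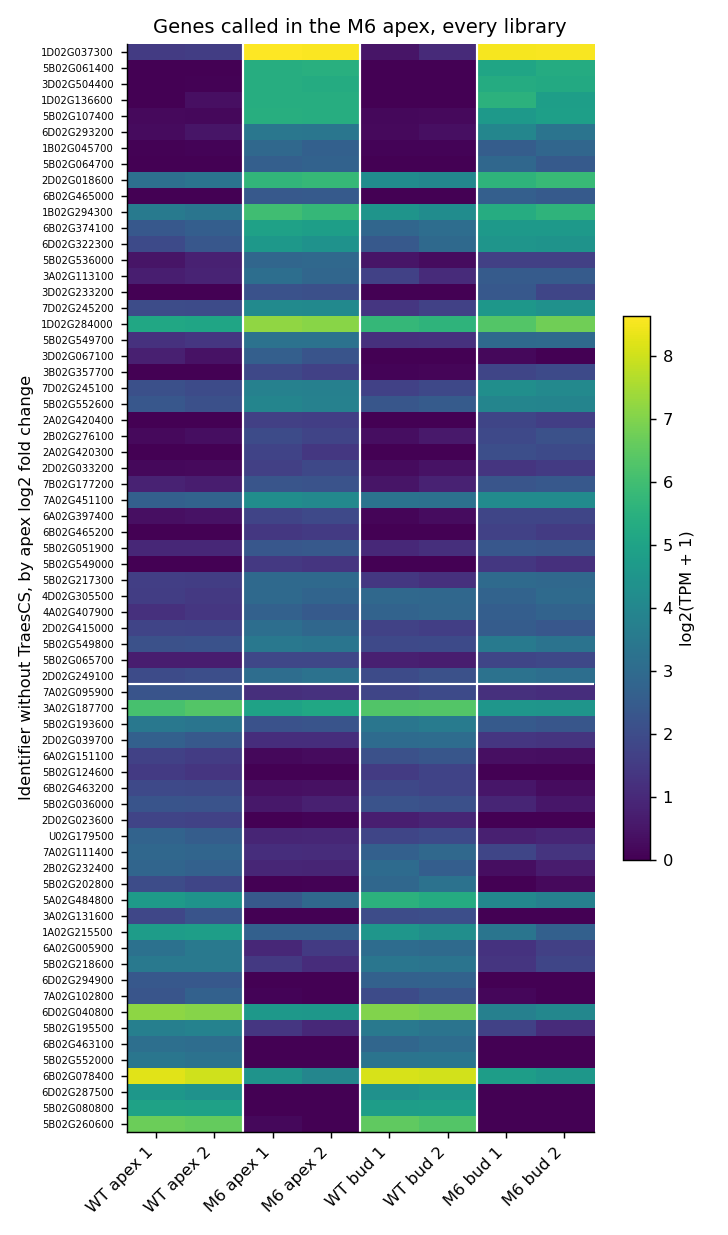
Level of the 68 called genes in each of the 8 ZM7698 libraries, as log2(TPM + 1) in colour, ordered by apex log2 fold change from the largest increase (top) to the largest decrease. The apex columns chose the genes; the bud columns come from other libraries and show a like split between WT and M6 in most rows.

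The list of regulators held 43 copies of genes of tillering, flowering and the spike, and 23 copies were expressed enough to be tested. The list was chosen with earlier results of these data known, so counts from it are a description and show no excess among regulators. In the M6 apex 2 of these 23 copies rose and 0 fell, where 0.0786% of all genes tested rose and 0.055% fell. The other 21 lay between -0.55 and 0.39, and the median of all 23 was -0.12, near the median of -0.05 over all genes tested. The 2 copies were SPL14-7D and SVP1-6D, both from the D subgenome. SPL14 encodes an SPL factor, known in rice as a regulator of tillering and panicle branching. SVP1 encodes a MADS-box factor of the Short Vegetative Phase group, whose members act in the vegetative meristem and in early spike growth.

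SPL14-7D (TraesCS7D02G245200) was at 3.03 and 2.93 TPM in WT and at 16.5 and 16.2 TPM in M6, a log2 difference of 2.12 ± 0.14 (SE, n = 2 against 2, limma adjusted p = 0.00625). SPL14-7A was at 4.65 and 4.65 TPM in WT and at 2.83 and 4.01 TPM in M6, a difference of -0.37 ± 0.15 that did not pass (limma adjusted p = 0.764). SPL14-7B was at 1.82 and 1.64 TPM in WT and at 1.23 and 1.51 TPM in M6, a difference of -0.20 ± 0.18 (limma adjusted p = 0.930). The D copy was thus the middle of the 3 in WT and the highest in M6. Its share of the summed TPM of the 3 copies was 31.9% and 31.8% in the WT libraries and 80.3% and 74.5% in the M6 libraries. The sum itself was 9.49 and 9.22 TPM in WT and 20.6 and 21.7 TPM in M6. In the bud libraries the D share was 27.2% and 29.9% in WT and 84.6% and 80.9% in M6, again without overlap.

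The tested gene next to SPL14-7D by identifier number rose with it, and was picked out after its values were seen. TraesCS7D02G245100 was at 3.33 and 2.93 TPM in WT and at 12.9 and 12.7 TPM in M6, a log2 difference of 1.74 ± 0.13 (limma adjusted p = 0.0112). In the buds it was at 2.17 and 2.67 TPM in WT and at 18.3 and 15.6 TPM in M6. No tested gene lay between these genes, and the 10 tested genes around the pair differed by -0.55 to 0.92, with 0 called. The library kit marks strand, but the sources used here do not say whether the quantification used it. The calls of both genes were lost without any 1 of the 4 apex libraries, with a limma adjusted p of up to 0.136 for SPL14-7D and 0.212 for its neighbour, while the difference of SPL14-7D stayed between 2.10 and 2.14.

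SVP1-6D (TraesCS6D02G293200) was at 0.186 and 0.395 TPM in WT and at 9.83 and 9.51 TPM in M6 (3.05 ± 0.21, limma adjusted p = 0.00852). The 10 tested genes around it differed by -0.25 to 0.45, with 0 called. Further off, with 13 tested genes between, lay the called gene TraesCS6D02G294900. That gene was at 4.17 TPM in both WT apex libraries and at 0 in both M6 apex libraries. The 13 genes between had a median difference of -0.03 and reached 1.70 in size. The D share of the SVP1 copies was 0.711% and 1.45% in WT and 30.4% and 29.7% in M6. Its D copy was nearly silent in WT and close to an equal share in M6, whereas SPL14-7D went from a share near equal to most of the total. The call was lost without any 1 apex library, with a limma adjusted p of up to 0.161. Reads that fit several close copies may have been divided among them, and these shares are uncertain to that extent.

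**Figure D3:**
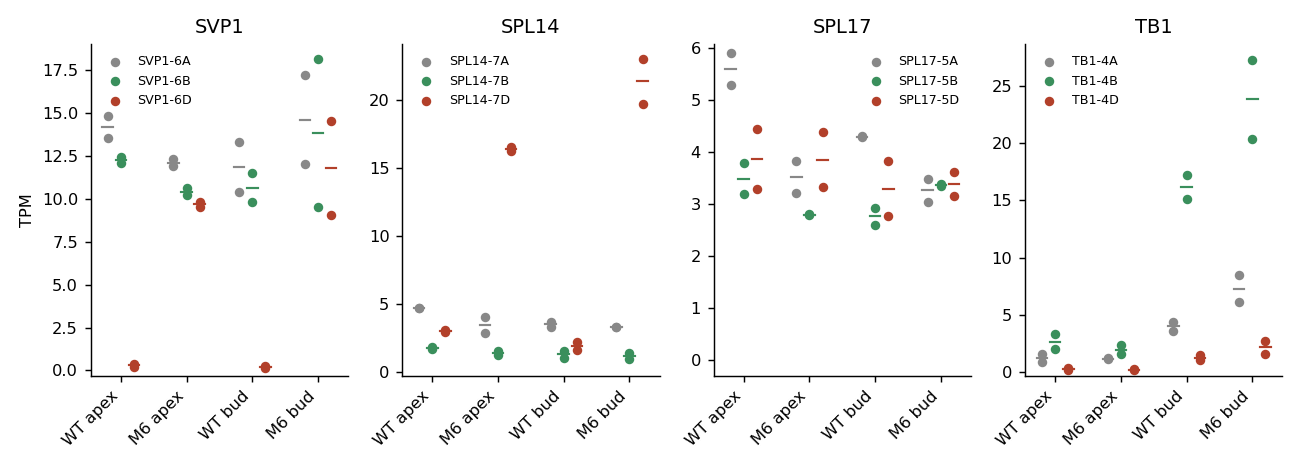
TPM of the A, B and D copies of SVP1, SPL14, SPL17 and TB1 (1 panel each, y axes differ) in the ZM7698 apex and bud groups; points are libraries (n = 2 a group) and bars are means. SPL14-7D lies at 16.5 and 16.2 TPM in the M6 apex against 3.03 and 2.93 TPM in WT, and SVP1-6D at 9.83 and 9.51 TPM against 0.186 and 0.395 TPM.

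The remaining tested regulators had no call. The A copy of SPL17, a close relative of SPL14, was at 5.29 and 5.91 TPM in WT and at 3.22 and 3.83 TPM in M6 (-0.55 ± 0.12, limma adjusted p = 0.359). The B and D copies of SPL17 differed by -0.24 and -0.00026. RHT1-4D, which encodes a DELLA repressor of gibberellin response and sets plant height, was at 125.4 and 127.3 TPM in WT and at 171.7 and 160.4 TPM in M6 (0.39 ± 0.14, limma adjusted p = 0.710). In SPL17-5A and RHT1-4D the genotypes did not overlap, yet neither difference passed across all genes. Several other uncalled copies, such as RHT1-4A and Q-5A, did not overlap either. Of all genes tested, 17.4% were higher and 29.2% lower in the M6 apex without overlap. The 3 copies of TB1, a repressor of bud outgrowth, differed by -0.29 to -0.0047, and those of the MADS-box gene VRT2 by -0.26 to -0.09. Q-5A, an AP2-like gene of spike shape and threshing, differed by -0.36, and the photoperiod gene PPD1-2D by -0.30.

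Regulators of flowering and of the reproductive meristem were low or at 0 in both genotypes. The 12 copies of VRN1, FUL2, FUL3 and FT1, which promote the floral transition, reached at most 0.0288 TPM in any apex library, and 8 of them were at 0 in all 4. The 9 copies of LFY, FZP and WAPO1, which act in the reproductive meristem, reached at most 1.66 TPM. Among these, 6 copies were above 0 in all apex libraries. The 3 FZP copies were above 0 in both WT libraries, at 0.792 TPM or less. Each was at 0 in the first M6 library, and FZP-2D in both, but all were under the filter and none was tested. LFY-2D, the highest of the 9 copies, was at 1.66 and 1.47 TPM in WT and at 0.901 and 0.829 TPM in M6 (-0.46 ± 0.20, limma adjusted p = 0.783).

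The bud libraries share no sample with the apex, but they are not independent of the choice of the 68 genes. The apex calls used 1 spread over all 8 libraries, so genes with close bud replicates were favoured. The first M6 bud library also stood apart: it correlated across genes at r = 0.947 with the second, at 0.923 and 0.944 with the WT buds and at 0.896 to 0.925 with the apex libraries. Of the 40 genes higher in the M6 apex, 38 were also higher in the M6 bud, and 37 without overlap of the bud libraries. For all genes tested, 55.2% had a higher mean log2 level in the M6 bud and 16.5% were higher without overlap. All 28 genes lower in the M6 apex were lower in the M6 bud without overlap, while 44.8% of all genes tested had a lower mean level there and 19.7% were lower without overlap. With the first M6 bud library left aside, the second lay above both WT buds in 38 of the 40 and below both in 28 of the 28, against 26.5% and 42.2% of genes tested.

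A limma fit on the 4 bud libraries alone called 4 of the 40 higher genes and 5 of the 28 lower genes, while 0.00983% of genes tested were called higher and 0.00983% lower. In that fit an unadjusted p under 0.05 was reached by 37 of the 40 and 28 of the 28, against 2.76% of genes tested that were higher and 4.72% that were lower. In the fit of all 8 libraries, which also chose the genes, 28 of the 40 and 21 of the 28 were called in the bud, against 0.0806% and 0.0668% of genes tested. When the genes were instead chosen with the 4 apex libraries alone, a choice that used the bud libraries for the filter on low values and not for the spread, 11 were called higher and 9 lower. Of these, 11 and 8 are among the 68. In the bud, all 11 were higher and all 9 lower without overlap, and the bud libraries alone called 4 and 4 of them. The leaf markers, which were apart in the apex, summed to 817.4 and 1086.8 TPM in the WT bud and to 634.6 and 1224.9 TPM in the M6 bud, so they overlapped there.

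The sizes of the change in both tissues were set side by side. The median log2 difference of the 40 genes was 1.63 in the bud beside 1.80 in the apex, and that of the 28 genes was -1.85 beside -1.98. By class, the median of the higher genes in apex and bud was 2.16 and 2.08 for switched, 1.72 and 1.40 for low, and 1.74 and 1.51 for graded genes. For the lower genes the medians were -2.43 and -2.94, -1.58 and -1.45, and -2.03 and -1.64. The bud difference was under 0.5 of the apex difference in 5 of the 40 and 1 of the 28. The apex medians come from the contrast that chose the genes. TraesCS5B02G061400 was at 0 in both WT buds and at 32.5 and 39.2 TPM in the M6 buds. TraesCS6B02G078400 was at 277.3 and 263.9 TPM in the WT buds and at 27.0 and 23.0 TPM in the M6 buds. In both genes the bud libraries split by genotype as the apex libraries did. SPL14-7D was at 1.60 and 2.21 TPM in the WT buds and at 23.0 and 19.7 TPM in the M6 buds, a bud difference of 2.95 ± 0.14 beside 2.12 in the apex.

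**Figure D4:**
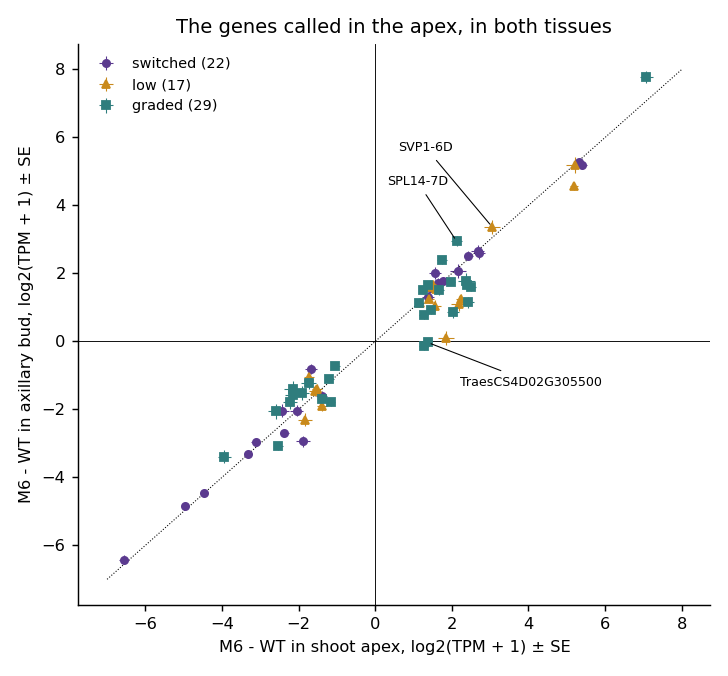
M6 minus WT difference of log2(TPM + 1) in the shoot apex (x axis) and the axillary bud (y axis) for the 68 genes called in the apex, with standard errors, coloured by class. Most points lie near the dotted line of equal change; the 3 points near 0 on the y axis are genes with an apex increase and little or no bud difference.

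A few of the genes higher in the M6 apex were not higher, or far less so, in the M6 bud. TraesCS4D02G305500 had 1.94 and 1.72 TPM in WT apices, 6.66 and 5.95 TPM in M6 apices, 6.53 and 6.47 TPM in WT buds and 5.79 and 6.92 TPM in M6 buds. The M6 apex thus had the level that buds of both genotypes had. Its difference was 1.37 ± 0.12 in the apex (limma adjusted p = 0.0227) and -0.03 ± 0.12 in the bud (limma adjusted p = 0.942). TraesCS4A02G407900 showed the same order of levels, at 1.32 and 1.57 TPM in the WT apex, 5.41 and 4.46 in the M6 apex, 5.77 and 6.18 in the WT bud and 5.02 and 5.77 in the M6 bud. Its difference was 1.28 ± 0.13 in the apex (limma adjusted p = 0.0379) and -0.13 ± 0.13 in the bud (limma adjusted p = 0.764). In AK58 the values of both genes were also higher in bud than in apex, but there tissue, age and vernalization differ together and cannot be told apart. TraesCS4D02G305500 had 10 and 18.7 normalised reads in the AK58 apex and 445.3 and 293.3 in the AK58 bud, and TraesCS4A02G407900 had 25.1 and 6.79 against 363.2 and 269.5. These genes were chosen after their values were seen, and their apex calls were lost without any 1 apex library or either WT bud library, with a limma adjusted p of up to 0.315 and 0.396.

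TraesCS3D02G067100, also chosen after its values were seen, was detected mainly in the apex of ZM7698. WT apices had 0.682 and 0.337 TPM and M6 apices 5.11 and 3.76 TPM, while 3 of the 4 bud libraries were at 0 and the other at 0.143 TPM. Its apex call (limma adjusted p = 0.0425) was lost without either WT apex library or any 1 of the 4 bud libraries. In those fits its apex log2 difference was 1.68 to 2.01. Without either M6 apex library the gene fell under the filter on low values and was not tested. With the apex libraries alone its call was lost too (limma adjusted p = 0.186), as it was with 0.1 added to each TPM (0.366). In AK58 it was at 0 in both apex and both bud libraries and had 14.3 and 4.63 normalised reads in leaf. The part of leaf RNA in its ZM7698 apex values was not tested. A pair of graded genes rose in the M6 apex and less in the bud. TraesCS1D02G284000 was at 34.3 and 33.0 TPM in the WT apex and 146.2 and 135.1 TPM in the M6 apex, and at 53.4 and 48.6 TPM in the WT bud and 79.7 and 108.5 TPM in the M6 bud. TraesCS1B02G294300 was at 10.7 and 9.23 TPM in the WT apex and 62.4 and 53.5 TPM in the M6 apex, and at 21.1 and 17.4 TPM in the WT bud and 39.5 and 48.1 TPM in the M6 bud. In both, WT buds lay above WT apices and M6 buds below M6 apices. Their apex log2 differences were 2.03 and 2.43 (limma adjusted p = 0.0133 and 0.00642), and their bud differences 0.86 and 1.14. The first call was lost without any 1 apex library or either WT bud library (adjusted p up to 0.232 in limma) and the second without any 1 apex library (up to 0.125).

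None of these tissue differences passed a test of its own. In limma 0 of 50878 genes had a called difference between the bud and the apex effect of M6, with a smallest adjusted p of 0.413 and 4105 genes at an unadjusted p under 0.05. Without the second M6 bud library, when the first, which stood apart, was the only M6 bud library, that count was 1634. A difference between the tissues is therefore not shown for the genes named, and likeness of the tissues is not shown either.

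By chromosome, as read from the identifiers, 5B held the most called genes. It had 20 of the 68, 11 higher and 9 lower in M6, among 2660 genes tested there. That is 0.752% of its tested genes, against 0.134% over all chromosomes, and an even spread over tested genes would have put 3.56 of the calls there. Chromosomes 2D and 6B held 6 each and 6D 5, while 4B and 5D held 0. By subgenome 15 calls were on A, 32 on B and 20 on D, or 0.0905%, 0.202% and 0.119% of the genes tested there. Chromosome 5B alone held 20 of the 32 B calls, so the higher B share rests largely on that chromosome. The B calls were 19 higher and 13 lower genes, the D calls 15 higher and 5 lower, and the A calls 6 higher and 9 lower. In summed output, B took 30.9% and 30.6% of the summed TPM in WT and 31.0% and 30.9% in M6, and D took 33.3% and 33.7% in WT and 33.4% and 33.3% in M6.

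**Figure D5:**
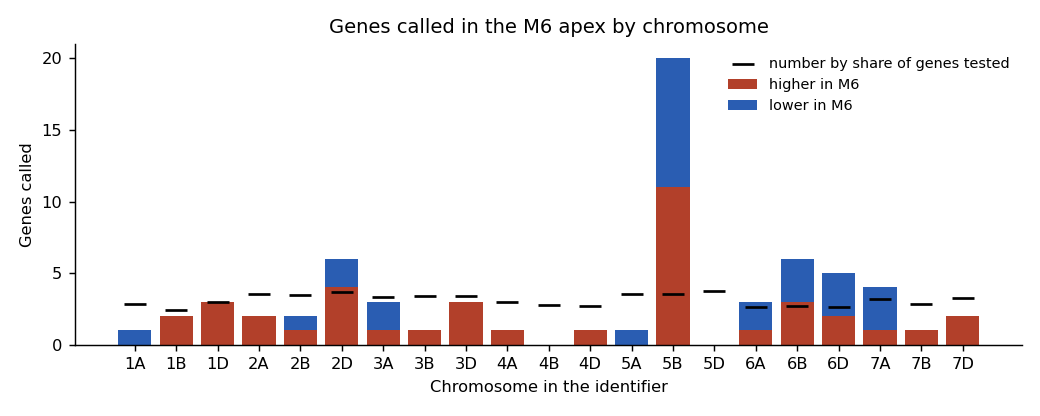
Number of genes called higher (red) and lower (blue) in the M6 apex on each chromosome, with a mark for the number that an even spread over tested genes would give. Chromosome 5B has 20 calls against 3.56 by its share of the tested genes.

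Some of the calls lay close together. By identifier number 15 of the 68 genes formed 5 groups with at most 5 tested genes between neighbours, and 3 of the groups mixed higher and lower genes. The largest, on chromosome 5B, held 5 called genes between TraesCS5B02G549000 and TraesCS5B02G552600, 4 higher and 1 lower. The 6 uncalled tested genes among them differed by at most 0.53 in either direction, with a median of -0.03. With the apex libraries alone TraesCS5B02G552000, the lower gene, kept its call and the other called genes of the group lost theirs. Within this group TraesCS5B02G552000 was at 9.38 and 8.54 TPM in WT and at 0 in both M6 libraries, while TraesCS5B02G549700 was at 1.34 and 1.55 TPM in WT and at 8.59 and 8.50 TPM in M6. The uncalled genes within other groups differed by more: the 3 between TraesCS5B02G217300 and TraesCS5B02G218600 had a median of -0.69 and reached 0.98 in size. On chromosome 6B a group of 4 held 2 lower and 2 higher genes, and the 1 uncalled gene among them differed by -1.24. There TraesCS6B02G463100 was at 7.89 and 7.51 TPM in WT and at 0 in both M6 libraries, and TraesCS6B02G465000 was at 0 in both WT libraries and at 4.30 and 4.48 TPM in M6. These genes, named for their place after their values were seen, went from on to off and from off to on side by side. On 2A the adjacent genes TraesCS2A02G420300 and TraesCS2A02G420400 were both at 0 in the WT libraries and at 1.62 to 2.32 TPM in the M6 libraries. With the apex libraries alone both calls were lost (limma adjusted p = 0.184 and 0.0927), as were those of TraesCS5B02G217300 and TraesCS5B02G218600. On 6B, TraesCS6B02G463100 and TraesCS6B02G465000 kept their calls in that fit, and TraesCS6B02G463200 and TraesCS6B02G465200 did not. Sequence differences between the M6 and WT plants near these genes were not analysed here.

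Many, but not all, of the genes that differed were expressed in the apex of the other cultivar. At least 10 normalised reads in both AK58 apex libraries were found for 29 of the 40 higher and 20 of the 28 lower genes, against 92.0% of all genes tested. Both AK58 apex libraries were at 0 for 4 of the 40 and 3 of the 28, against 2.19% of all genes tested. By class, 6 of 11 switched higher and 7 of 11 switched lower genes reached 10 normalised reads, as did 15 of 17 graded higher and 9 of 12 graded lower genes. A leaf level of at least 2 times the apex level was then counted in AK58. This rule was met by 9 of the 40 higher and 6 of the 28 lower genes and by 24.7% of all genes tested. It is also met by genes at 0 in both tissues, such as TraesCS3D02G504400 and TraesCS3A02G187700, so it does not count only genes higher in leaf. AK58 was not fitted with ZM7698, and these shares are descriptions.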

How the data were processed

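The deposited ZM7698 values are TPM made by the authors; per the submitters' processing notes the tools were Trimmomatic, HISAT2 2.0.5 and StringTie 1.3.3b. No source used here names the genome build. The deposited AK58 values are a signal: whole reads, within 0.001, divided by 1 factor per library. Per the labels, stranded messenger RNA libraries were made from total RNA.

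All 8 ZM7698 libraries were fitted in limma 3.58.1 (R 4.3.3) on log2(TPM + 1) with an intensity trend, 1 mean per group, two-sided, with Benjamini-Hochberg adjustment over 50878 genes. This scale understates changes of low genes. The members, gene list and tests were chosen with earlier results of these data known. Named are the listed regulators and, per class, the 2 largest increases and decreases with non-overlapping libraries and a mean of at least 5 TPM; others were added after their values were seen. Alternatives were added values of 0.1 and 5, other filters and scalings, no trend, no minimum fold, the apex or bud libraries alone, a replicate block, other limits for classes and neighbours, and each library left out. After the data were seen, the bud values were added for the second M6 bud library alone and for genes called with the apex libraries alone.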

Additional observations from a re-analysis of the deposited data

Results flagged for a closer look

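TraesCS4A02G407900 stood out because its M6 libraries lay above both WT libraries in the apex and its M6 effect had the opposite sign in the bud. The apex difference was 1.28 on the log2 scale. The bud difference was -0.127 ± 0.132 (SE, limma adjusted p = 0.764), so its sign is not settled. The limma test of the difference between the tissues gave -1.40 with an adjusted p of 0.413, which did not pass. TraesCS4D02G305500 had a like pattern, with a difference of 1.37 in the apex and -0.03 in the bud.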

How the results depend on the processing

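Under the settings tried, none of the 68 genes changed direction, and 10 kept their call in every one. The count of higher and lower genes was 40 and 28. It was 21 and 14 with 5 added to each TPM, 19 and 12 with a filter of 5 TPM, 11 and 9 with the apex libraries alone, and 18 lower with no filter. Leaving out 1 library gave 5 to 49 higher and 8 to 37 lower genes. The replicate block gave 15 and 11. Replicate numbers were not taken as pairs, since the WT and M6 apex differences between replicates correlated at -0.14. Tissue differences of the M6 effect numbered 0, and 0 to 1634 without 1 library. The bud libraries alone gave 5 and 5, all 8 libraries 41 and 34, and 1 library less 0 to 13 higher and 0 to 7 lower. With a limit of 0.5 TPM, switched higher genes numbered 17, switched lower 13, low higher 6 and low lower 3. With up to 20 genes between, 24 called genes had neighbours. Where fewer genes or libraries entered, that is part of the construction; the cause was otherwise not tested. Depth is unknown for TPM, so a 0 cannot be given a limit.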
